A study of Mus musculus with 12 samples.

Results

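ATF4 is a transcription factor of the integrated stress response. Kinases that sense missing amino acids, misfolded proteins, haem shortage or double-stranded RNA phosphorylate the translation factor eIF2α, which slows general protein synthesis while ATF4 is translated. ATF4 then switches on genes for amino acid synthesis and uptake, transfer RNA charging and glutathione handling and, through its partner CHOP, genes of cell death. Much of this control acts on translation, so the Atf4 transcript is not a measure of ATF4 protein. In acute myeloid leukemia the pathway is known for keeping blasts alive when amino acids or oxygen run short. The set described here holds the regulators Atf4, Ddit3 and Trib3 and the effectors Chac1, Slc7a11, Asns, Phgdh and Psat1. Members were looked up by gene symbol, and all 8 were found among the 24454 genes of the deposited table. The set was chosen with earlier results of these data known.

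The blasts were mouse fetal liver cells transformed with a retroviral vector that carries the fusion oncogene MLL-AF9 and the fluorescent reporter Venus. They came from wildtype (WT) mice or from mice that lack STAT3β, a splice isoform of the transcription factor STAT3 (Δβ). Young adult male NSG mice, which have no T, B or natural killer cells but keep their own macrophages and stroma, received the cells by tail vein, and Venus+ cells were sorted from spleen (SP) and bone marrow (BM) of diseased animals. All groups thus share the oncogene, the vector and the immunodeficient host, and STAT3β is absent from the Δβ blasts from the start. The labels name no treatment. Each genotype and organ had 3 libraries made with poly-A enrichment, 12 in all. The labels do not say whether replicates came from separate animals or cell lines, so p-values measure the spread between these libraries, which may be partly technical. Values are normalised counts, which are reads on a gene divided by 1 size factor per library.

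Between 9001051 and 13859727 reads per library fell on genes, and 1 read was worth 0.775 to 1.17 normalised counts. Stat3 itself ranged from 2978 to 4430 normalised counts for WT and from 2674 to 3236 for Δβ in SP. Its BM range was 2714 to 3200 for WT and 2349 to 3228 for Δβ, and a table per gene does not separate the isoforms, so this does not check the deletion. WT SP replicate 3 stood apart from the other WT SP libraries. Without it, limma called 1884 genes between the genotypes in SP at an adjusted p under 0.05, against 12 with it. It also had 40587 normalised counts of the granule enzyme gene Mpo, against 5947 and 5256 in WT SP replicates 1 and 2, and 10941 of the myeloid integrin gene Itgam, against 26293 and 21981. The ribosomal RNA precursor Rn45s took 2.48% and 2.41% of reads in WT SP replicates 2 and 3 and at most 0.725% in every other library. The labelled cells were checked on their markers: Ptprc, Kit, Cd34, Mpo, Elane, Itgam, Hoxa9 and Meis1 were read in all 12 libraries, the haemoglobin genes Hba-a1 and Hbb-bs in none. Summed over their lists, erythroid genes had 4.65 to 14.9 normalised counts per library, megakaryocyte genes 30.4 to 95.3 and lymphoid genes 5.84 to 123. The stromal and endothelial list summed to 1055 to 1201 in WT SP and 1404 to 2524 in Δβ SP, without overlap, while marrow had 789 to 1283 (WT) and 1181 to 1875 (Δβ). Nearly all of it was Pecam1, which leukocytes also express, while Col1a1, Col3a1, Cxcl12 and Cdh5 reached at most 19.1, 7.98, 33.7 and 3.18 normalised counts in any library. Its part in the results below was not tested.

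Sequence around the transcription start was examined for the letters TGATGNAA, the composite C/EBP-ATF response element through which ATF4 and its C/EBP partners are known to act (TTNCATCA when read on the other strand). The windows, from RefSeq on GRCm38.p6, ran from 250 bases before to 50 bases after each annotated start, and all 8 members had one. The letters were found in 4 of the 8 members, Chac1, Trib3, Slc7a11 and Asns, against 3.97% of all 32851 windows and 2.75% of the 9275 tested genes that had a window. These windows are shown because they place the 4 members that carry the element beside each other, up to 30 bases after the start. They lie at chr2:119350992-119351271 (plus strand, Chac1), chr2:152344031-152344310 (minus strand, Trib3), chr3:50443584-50443863 (minus strand, Slc7a11) and chr6:7693180-7693459 (minus strand, Asns). Each is written 5′ to 3′ along the gene, with the matches in capitals.
Chac1: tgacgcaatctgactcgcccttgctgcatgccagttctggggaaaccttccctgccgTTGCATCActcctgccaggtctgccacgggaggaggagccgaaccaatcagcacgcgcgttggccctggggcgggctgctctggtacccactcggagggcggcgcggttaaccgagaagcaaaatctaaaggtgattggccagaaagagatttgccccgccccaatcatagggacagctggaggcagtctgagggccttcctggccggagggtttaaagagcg
Trib3: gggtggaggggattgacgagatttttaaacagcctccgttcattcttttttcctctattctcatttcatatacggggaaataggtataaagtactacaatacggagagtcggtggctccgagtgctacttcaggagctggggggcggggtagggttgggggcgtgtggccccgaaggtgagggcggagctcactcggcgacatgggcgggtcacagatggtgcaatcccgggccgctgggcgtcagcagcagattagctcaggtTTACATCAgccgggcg
Slc7a11: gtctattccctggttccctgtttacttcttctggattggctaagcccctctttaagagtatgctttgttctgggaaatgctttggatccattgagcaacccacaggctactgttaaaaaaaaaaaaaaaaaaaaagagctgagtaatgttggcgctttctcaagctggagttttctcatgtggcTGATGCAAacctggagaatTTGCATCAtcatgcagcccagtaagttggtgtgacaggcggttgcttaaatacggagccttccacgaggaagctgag
Asns: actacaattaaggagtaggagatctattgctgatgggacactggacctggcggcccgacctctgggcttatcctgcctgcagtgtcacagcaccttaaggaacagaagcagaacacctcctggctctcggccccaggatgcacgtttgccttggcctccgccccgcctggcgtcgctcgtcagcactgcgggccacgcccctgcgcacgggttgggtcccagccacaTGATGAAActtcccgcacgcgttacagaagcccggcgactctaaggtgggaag

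Chac1 held TTGCATCA 193 bases before the start and Asns held TGATGAAA 23 bases before it. Slc7a11, the cystine importer, held a pair of matches on opposite strands, TGATGCAA at 66 bases and TTGCATCA at 47 bases before its start. Trib3 held TTACATCA from base 15 after its start. The antioxidant response element TGACNNNGC (GCNNNGTCA on the other strand), the motif of the redox factor NRF2, was found in the windows of Asns and Phgdh. It was in 12.4% of all windows and in 17.1% of the tested genes that had a window. The cyclic AMP response element TGACGTCA, which shares its first letters with the antioxidant motif, was found in 0 of 8 members. It was in 1.79% of all windows and 3.68% of those tested genes. Atf4, Ddit3 and Psat1 held none of the 3 motifs in these windows. A match describes letters only. Slc7a11 is a known target of NRF2, whose letters were not in this window.

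**Figure D1:**
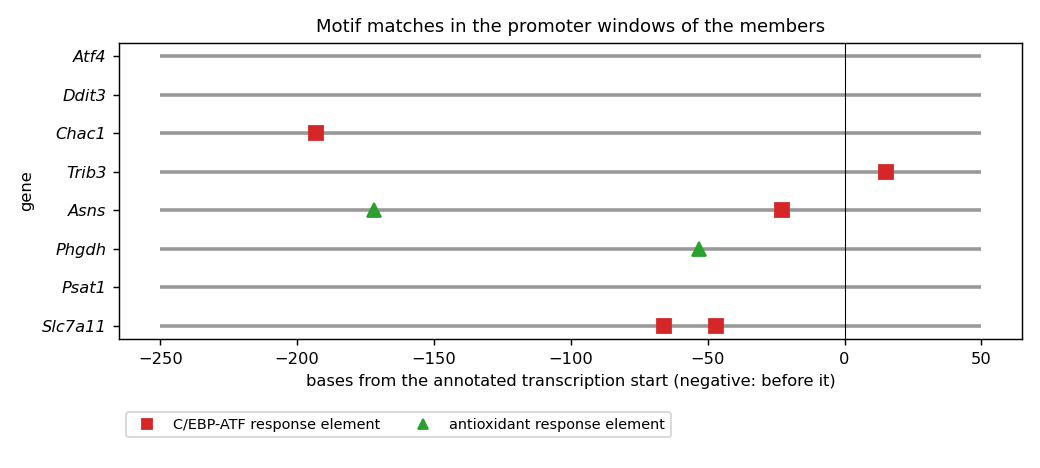
Positions of motif matches (x axis: bases from the annotated transcription start, negative before it) in the windows of the 8 members (y axis); squares are C/EBP-ATF response elements and triangles antioxidant response elements. Slc7a11 is the member with 2 squares, at -66 and -47, and Atf4, Ddit3 and Psat1 have no mark.

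The levels of the members spanned a wide range. Per kilobase of transcript, averaged over the 12 libraries, Atf4 had 1800 normalised counts, Psat1 569, Asns 273 and Ddit3 142, while Phgdh had 11.9, Chac1 9.48, Slc7a11 5.56 and Trib3 3.81. The mean of Slc7a11 hides its spread over the groups, with 16.0 per kilobase in WT SP, the highest of these 4 there, against 2.34 in Δβ SP and, in marrow, 2.25 (WT) and 1.69 (Δβ). Over the libraries, Atf4 (1448 to 2197 per kilobase) did not overlap with Psat1 (405 to 830 per kilobase). Psat1 and Asns (154 to 515 per kilobase) overlapped, as did Asns and Ddit3 (112 to 175 per kilobase) and all neighbours among the 4 low members. The blasts thus held much transcript of the last-but-one serine synthesis enzyme Psat1 and little of the first, Phgdh. Phgdh was covered by 9 to 41 reads per library, Chac1 by 5 to 25 and Trib3 by 2 to 20, so that counting error alone is large for them.

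No member passed the test between genotypes or organs in limma on log2(normalised count + 1), with Benjamini-Hochberg adjustment over the 11476 genes whose mean reached 10 normalised counts. Of the 8 members 7 passed this filter, and Trib3 (mean 7.72) was not tested. In SP 0 of 7 members passed an adjusted p under 0.05, against 0.105% of all tested genes. In BM it was again 0 of 7, against 0.0697% of all tested genes. Between SP and BM 0 of 7 passed in WT and 0 of 7 in Δβ, against 0% of all tested genes in each. The test of whether the genotype difference itself differed between SP and BM was passed by 0 of 7 members and by 0% of all genes. edgeR's quasi-likelihood test on the recovered reads also called 0 members in the 5 comparisons, against 0.0349% of all genes in SP, 0.0697% in BM and 0% in the other 3. DESeq2 called 1 member, Slc7a11, in 2 of them. It called 3.99% of all genes between genotypes in SP, 0.323% in BM, 0.969% between organs in WT, 0.0175% in Δβ and 0.0262% for the difference of the differences. With 3 libraries a side, the smallest two-sided p of an exact permutation test is 0.1.

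At an unadjusted p under 0.05 in limma, 2 of 7 members stood out between genotypes in SP, Slc7a11 lower and Phgdh higher in Δβ, against 14.9% of all tested genes. The count was 0 of 7 in BM, against 2.59% of all genes. Between organs in WT it was Slc7a11 and Phgdh again, 2 of 7 against 8.27%, and between organs in Δβ 0 of 7 against 1.77%. For the difference of the differences it was 0 of 7 against 3.2%. The SP genotype comparison and the WT organ comparison share the 3 WT SP libraries, so their counts are not separate evidence. The median log2 fold change of the 7 members was 0.40 between genotypes in SP, where that of all tested genes was -0.01, and -0.08 in BM, where that of all genes was -0.02.

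**Figure D2:**
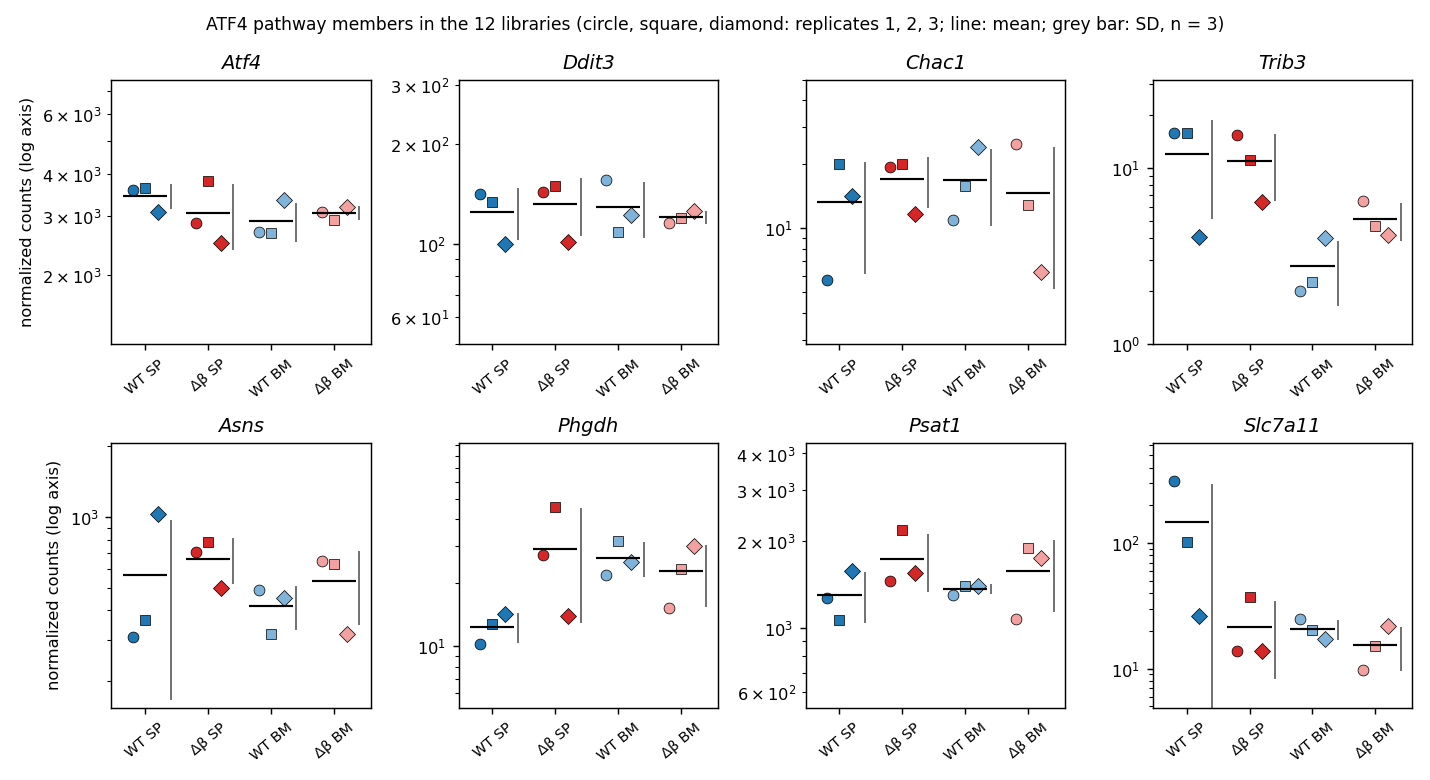
Normalised counts (log axis) of the 8 members in each of the 12 libraries; circles, squares and diamonds are replicates 1, 2 and 3, the line is the group mean and the grey bar its SD (n = 3; for Slc7a11 in WT SP it runs below the axis). Slc7a11 in WT SP spans 26.4 to 313, while Atf4 and Ddit3 stay within a narrow band in all groups.

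Among the regulators, Atf4 was even across the groups. It had 3570, 3621 and 3088 normalised counts in replicates 1, 2 and 3 of WT SP, the order used throughout, against 2856, 3791 and 2498 for Δβ SP. The BM libraries had 2681, 2659 and 3333 for WT and 3075, 2905 and 3186 for Δβ. The highest and the lowest Atf4 value of the whole study both belonged to Δβ SP, and the groups overlapped in every comparison. Δβ minus WT on the log2 scale was -0.19 in SP (95% interval -0.53 to 0.16, adjusted p = 0.550, limma) and 0.09 in BM (-0.26 to 0.43, adjusted p = 1.0, limma). The SP value turned to 0.001 under quantile normalization. SP minus BM was 0.25 in WT (-0.09 to 0.59) and -0.02 in Δβ (-0.37 to 0.32), both log2. In these bulk samples fewer cells of a type and less RNA per cell cannot be told apart.

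Ddit3 encodes CHOP, the factor through which a lasting stress response is known to lead to cell death. It had 141, 134 and 99.5 normalised counts in WT SP and 143, 149 and 101 in Δβ SP. BM values were 156, 108 and 122 in WT and 115, 119 and 125 in Δβ. These values lie in 1 band, and the third replicate was the lowest of its group in both genotypes in SP. The genotype difference, Δβ minus WT in log2 units, was 0.07 in SP (95% interval -0.40 to 0.54) and -0.08 in BM (-0.56 to 0.39), with adjusted p = 0.891 and 1.0 from limma. The intervals leave out a doubling of Ddit3 in either organ.

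Trib3, a pseudokinase induced by ATF4 with CHOP that feeds back on both, was near the limit of detection. It had 16.0, 15.9 and 4.06 normalised counts in WT SP and 15.5, 11.2 and 6.41 in Δβ SP. Its BM values were 1.98, 2.25 and 4.03 in WT and 6.52, 4.67 and 4.14 in Δβ. All WT SP values lay above all WT BM values, though WT SP replicate 3 and WT BM replicate 3 rested on 4 reads each. The Δβ BM values lay just above the WT BM values, at 4 to 6 reads against 2 to 4, and a count of 3 reads was taken as the floor for counting error. Fitted without the filter, the difference SP minus BM in WT was 1.63 on the log2 scale (unadjusted p = 0.0138, adjusted p = 0.622, limma), and Δβ minus WT was 0.01 in SP and 0.72 in BM, both with an adjusted p = 1.0 from limma.

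Slc7a11 was the only effector called under any alternative fit, and the main test did not call it. It encodes xCT, the light subunit of the antiporter that takes up cystine in exchange for glutamate and so feeds glutathione synthesis. It had 313, 102 and 26.4 normalised counts in WT SP, from 275, 96 and 26 reads. In Δβ SP it had 14.0, 37.0 and 13.9 normalised counts. For BM the values were 24.8, 20.3 and 17.1 in WT and 9.78, 15.2 and 21.8 in Δβ. WT SP replicates 1 and 2 were thus far above the other 10 libraries, while WT SP replicate 3 fell between the Δβ SP values. On the mean WT SP had 147 ± 149 (SD, n = 3) and Δβ SP 21.6 ± 13.3 (SD, n = 3).

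Slc7a11 was lower in Δβ SP than in WT SP by a log2 fold change of -2.24 (SE 0.74, 95% interval -3.87 to -0.61, unadjusted p = 0.0117, adjusted p = 0.245, limma). In BM it was -0.44 (SE 0.74, -2.07 to 1.19, adjusted p = 1.0, limma). SP minus BM in WT was 2.16 (0.53 to 3.79, unadjusted p = 0.0142, adjusted p = 0.583, limma), and in Δβ it was 0.36 (-1.27 to 1.99, adjusted p = 1.0, limma). DESeq2 gave -2.74 with an adjusted p = 0.0132 between genotypes in SP and 2.82 with an adjusted p = 0.0259 between organs in WT. The difference between the genotype effects in SP and BM was -1.80 (-4.10 to 0.51, adjusted p = 0.926, limma), so a genotype effect particular to SP was not shown.

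The call of Slc7a11 depended on the test, as given above, and in limma on 1 library. Without WT SP replicate 3 limma gave a log2 fold change of -3.14 in SP (adjusted p = 0.0126) and 3.06 between organs in WT (adjusted p = 0.0260), among 16.4% and 5.21% of all tested genes called in those fits. Without WT SP replicate 1 the log2 fold changes were -1.38 (adjusted p = 0.570, limma) and 1.30 (adjusted p = 0.999, limma). The values outside WT SP ranged from 9.78 to 37.0 normalised counts in both genotypes and organs.

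Other transcripts were also high in the WT SP libraries. The 10 immediate early genes of a list of AP-1, EGR and related factors, which tissue dissociation and sorting are known to induce, had mean log2 deviations from the 12-library mean of 1.56, 1.34 and 1.07 in WT SP replicates 1, 2 and 3. In Δβ SP they were -0.97, 0.37 and -1.30, and the marrow values were -0.89, -1.24 and 0.85 (WT) and 0.22, -0.92 and -0.09 (Δβ). WT BM replicate 3 was thus high for these genes while Slc7a11 was low there, at 17.1 normalised counts. Within WT SP the leukocyte and myeloid genes Ptprc and Itgam had the same order as Slc7a11, replicate 1 the highest and replicate 3 the lowest. Itgam is given above, and Ptprc had 20833, 14695 and 6066 normalised counts. The progenitor gene Kit had the opposite order, 439, 562 and 1413. Mpo, a myeloid gene of the same marker list given above, was also highest in replicate 3. Ptprc, Itgam, Kit and Mpo were picked from that list after their values were seen. They do not show how the list as a whole ran within WT SP. Of the 10 macrophage genes examined, Adgre1 and Vcam1 made up nearly all of the summed level, 2705 to 4708 normalised counts in WT SP and 2873 to 4569 in Δβ SP. In marrow the sum was 5119 to 8003 in WT, above all SP libraries, and 3714 to 4776 in Δβ. Of the same list, C1qa, C1qb and C1qc reached 14.8, 30.8 and 5.70 in WT SP replicate 1 and at most 4.27 in every other library. Marco had 14.8, 21.2 and 12.2 in WT SP and was at 0 in all Δβ SP libraries. The C1q genes and Marco were picked from the list after their values were seen. They do not stand for the list, whose sum overlapped between genotypes in SP. The part of these genes in the Slc7a11 values was not tested.

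**Figure D3:**
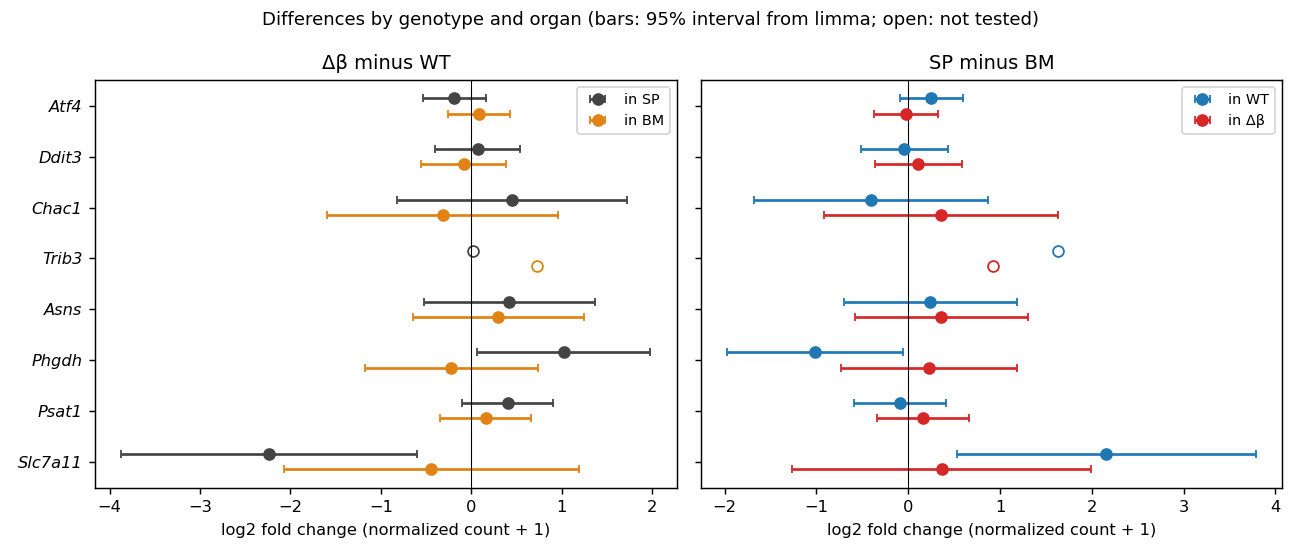
Log2 fold changes of the members from limma with 95% intervals, Δβ minus WT in SP and BM (left) and SP minus BM in WT and Δβ (right); open circles are Trib3, which was not tested. The intervals of Slc7a11 and Phgdh leave out 0 between genotypes in SP and between organs in WT, and neither passed adjustment.

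Chac1 degrades glutathione and is known as one of the most responsive ATF4 targets. It had 5.70, 20.1 and 14.2 normalised counts in WT SP and 19.4, 20.2 and 11.7 in Δβ SP. In marrow Chac1 had 10.9, 15.8 and 24.2 in WT and 25.0, 12.8 and 6.21 in Δβ. High and low libraries occurred in every group. Log2 differences of Δβ from WT were 0.45 in SP (95% interval -0.82 to 1.72, adjusted p = 0.705, limma) and -0.32 in BM (-1.59 to 0.96, adjusted p = 1.0, limma), so that the SP interval holds a doubling and the BM interval a halving.

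Asns, asparagine synthetase, is the textbook gene of the amino acid response. It had 309, 366 and 1030 normalised counts in WT SP and 712, 782 and 499 in Δβ SP. In BM Asns had 489, 319 and 451 in WT and 649, 632 and 319 in Δβ. WT SP replicate 3 was the highest of the 12 libraries and WT SP replicate 1 the lowest, the reverse of the order that Slc7a11 had within WT SP. The log2 values for Δβ minus WT were 0.42 in SP (95% interval -0.53 to 1.36, adjusted p = 0.630, limma) and 0.30 in BM (-0.65 to 1.24, adjusted p = 1.0, limma). Without WT SP replicate 1, 2 or 3 the SP value was 0.09, 0.21 or 0.96, and with 1 BM library left out the BM value ran from 0.11 to 0.63. Without WT SP replicate 3 the SP minus BM value in WT turned from 0.24 to -0.30 on the log2 scale.

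Phgdh makes the first, committed step of serine synthesis from a glycolytic intermediate. It had 10.3, 12.7 and 14.2 normalised counts in WT SP and 27.1, 45.9 and 13.9 in Δβ SP. In BM Phgdh had 21.8, 31.5 and 25.2 in WT and 15.2, 23.4 and 30.04 in Δβ. WT SP was the low group: all of its values lay below those of WT BM, and only Δβ SP replicate 3 kept it from standing clear of Δβ SP. Δβ minus WT in SP came to a log2 fold change of 1.02 (95% interval 0.06 to 1.98, unadjusted p = 0.0386, adjusted p = 0.316, limma). In BM it was -0.22 (-1.18 to 0.74, adjusted p = 1.0, limma), and SP minus BM in WT was -1.02 (-1.97 to -0.06, unadjusted p = 0.0394, adjusted p = 0.599, limma). The difference of the genotype effects was 1.24 (-0.11 to 2.60, unadjusted p = 0.0683, adjusted p = 0.926, limma).

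Psat1 carries out the next step of the same pathway. It had 1267, 1061 and 1572 normalised counts in WT SP and 1449, 2172 and 1549 in Δβ SP. In BM Psat1 had 1301, 1390 and 1400 in WT and 1072, 1891 and 1740 in Δβ. Δβ SP replicate 2 was the highest for both Psat1 and Phgdh. On the log2 scale Δβ minus WT was 0.40 in SP (95% interval -0.10 to 0.90, adjusted p = 0.412, limma) and 0.16 in BM (-0.34 to 0.66, adjusted p = 1.0, limma).

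Groups that did not overlap were also counted. Of the 7 tested members 0 stood clear between genotypes in SP, against 17.3% of all tested genes, and 0 in BM, against 7.63%. Between organs in WT it was 2 of 7, Slc7a11 higher and Phgdh lower in SP, against 11.5%. In Δβ it was 0 of 7, against 7.42%.

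Across the 12 libraries the members did not form 1 pattern. Pearson's r of log2 values ranged from -0.44 (Chac1 and Slc7a11) to 0.64 (Phgdh and Psat1) over the 28 pairs, and Slc7a11 was negatively related to Chac1, Asns (-0.43), Phgdh (-0.43) and Psat1 (-0.23). These are descriptions over 12 libraries that fall into 4 groups and share their size factors. Atf4 had an r of 0.62 with Slc7a11, 0.57 with Trib3 and 0.41 with Ddit3, and one of 0.03 with Psat1 and -0.04 with Asns. Among all tested genes those most like Atf4 were Ten1 (0.90), the AP-1 gene Fos (0.88) and Hcar2 (0.86). The genes most like the mean of the 7 tested members were Snapc1 (0.83), Mien1 (0.79), Deb1 (0.77), Mthfd2 (0.77), which encodes a mitochondrial folate enzyme, and Fam104a (0.77). Those most like Psat1 were C1qbp (0.97), the mitochondrial serine enzyme gene Shmt2 (0.96) and Cct3 (0.96). Psat1 was picked for this after its values were seen.

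**Figure D4:**
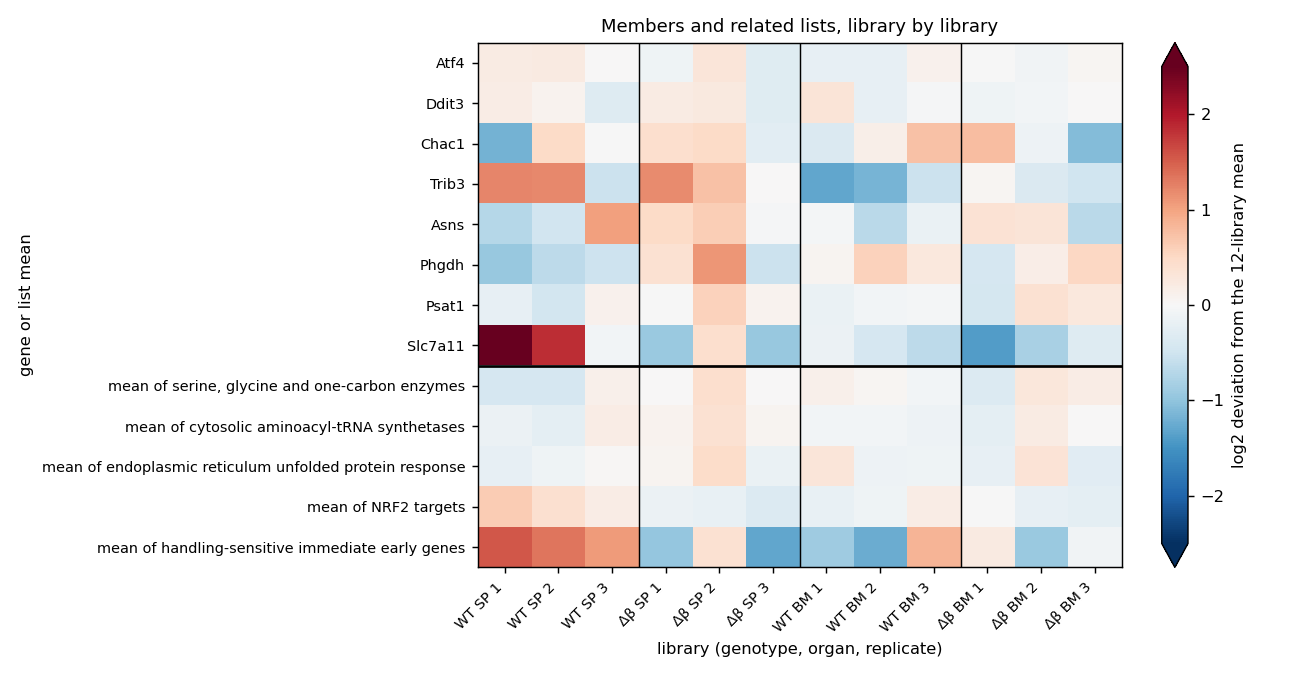
Log2 deviation from the 12-library mean (colour scale, which ends at 2.5 in either direction) of each member and of the mean of 5 related lists (rows) in the 12 libraries (columns). Slc7a11 is deep red in WT SP 1 and 2 alone, at 3.46 and 1.85, and the immediate early row is red in all WT SP libraries.

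The wider pathway was followed in 10 lists of related genes, of which 129 were in the table and 115 were tested. By limma and by edgeR 0 of the 115 passed an adjusted p under 0.05 in any of the 5 comparisons. At an unadjusted p under 0.05 in limma, 7 were higher and 22 lower in Δβ in SP, against 14.9% of all tested genes in either direction. In BM 1 was higher and 1 lower, against 2.59%. Between organs 16 were higher and 3 lower in SP than BM in WT, against 8.27%, and 1 was higher and 2 lower in Δβ, against 1.77%. DESeq2 called 10 of them in SP, all lower in Δβ, against 3.99% of all genes, and 0 in BM, against 0.323%. These were the NRF2 targets Hmox1, Srxn1 and Ftl1, the immediate early genes Nr4a1, Ier2, Ier3, Junb, Dusp1 and Zfp36, and the AP-1 antagonist Jdp2. Between organs in WT it called 3, Nr4a1, Ppp1r15a and Nupr1, against 0.969% of all genes. Without WT SP replicate 3 limma called 27 of the 115 in SP, against 16.4% of all tested genes.

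Upstream of ATF4, 10 genes for the eIF2α kinases, the subunit they act on, the phosphatase and regulators were tested. In SP 6 were higher and 4 lower in Δβ, and the median was 0.06 on the log2 scale. The highest was Eif2ak2, the double-stranded RNA sensor PKR, with 709, 661 and 684 normalised counts in WT SP and 959, 932 and 764 in Δβ SP. It was also the highest in BM, with 670, 606 and 569 in WT and 821, 806 and 683 in Δβ. All Δβ values of Eif2ak2 lay above all WT values in either organ, and the log2 fold changes were 0.36 in SP (unadjusted p = 0.0125, adjusted p = 0.248, limma) and 0.32 in BM (unadjusted p = 0.0229, adjusted p = 1.0, limma). Eif2ak2 is also known as an interferon-inducible gene.

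The lowest of that list in SP was Ppp1r15a, which encodes GADD34, the phosphatase subunit that ends the response. It had 1406, 1103 and 1458 normalised counts in WT SP and 453, 886 and 229 in Δβ SP, without overlap. In BM it had 258, 241 and 682 in WT and 548, 306 and 421 in Δβ. Its SP difference was -1.54 in log2 units (SE 0.49, unadjusted p = 0.00906, adjusted p = 0.234, limma). Ppp1r15a was high in the same 3 WT SP libraries as the immediate early genes and lowest, as they were, in Δβ SP replicate 3, and their part in it was not tested. Eif2ak3, the sensor PERK of the endoplasmic reticulum, was the lowest in BM at -0.20 (adjusted p = 1.0, limma).

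Of the 9 partner and related transcription factors 2 were higher and 7 lower in Δβ in SP, with a median of -0.51. Atf3, a stress-induced factor, had 832, 569 and 157 normalised counts in WT SP and 70.5, 141 and 58.7 in Δβ SP, which is a log2 difference of -2.32 (unadjusted p = 0.0342, adjusted p = 0.309, limma). Its lowest WT SP value was again replicate 3. Batf2, an interferon-inducible factor, was the highest at 2.76 in SP (unadjusted p = 0.0596, adjusted p = 0.354, limma), with 11.4, 2.12 and 5.07 normalised counts in WT SP and 89.1, 49.3 and 14.9 in Δβ SP. It was also the highest in BM at 0.76, where Δβ BM replicate 3 had 0 reads and the other Δβ libraries 52.2 and 38.5. Jdp2 was the lowest in BM at -0.51 (unadjusted p = 0.0375, adjusted p = 1.0, limma).

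No serine, glycine or one-carbon enzyme passed adjustment. All 7 tested serine, glycine and one-carbon enzymes had a positive log2 fold change in SP, also under TMM and quantile scaling, with a median of 0.32, while 48.1% of all tested genes were positive. Mthfd1 was the highest at 0.65 (unadjusted p = 0.0627, adjusted p = 0.358, limma) and Psph, the last enzyme of serine synthesis, the lowest at 0.15. In BM 4 of 7 were positive, with a median of 0.05, Shmt2 the highest at 0.10 and Mthfd2 the lowest at -0.11. WT SP replicates 1 and 2 were low on this list, at -0.42 and -0.42 on the mean log2 deviation, and replicate 3 was at 0.13.

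Of the 20 cytosolic aminoacyl-tRNA synthetases, which charge transfer RNAs, 19 were positive in SP, all but Gars, with a median log2 fold change of 0.28. Under quantile scaling all 20 were. Aars was the highest at 0.45, with 1524, 1376 and 2128 normalised counts in WT SP and 2080, 2534 and 2178 in Δβ SP (unadjusted p = 0.0304, adjusted p = 0.297, limma). In BM 17 of 20 were positive, with a median of 0.08, Wars the highest at 0.32 and Tars the lowest at -0.04. The list means were -0.15, -0.24 and 0.18 in the WT SP replicates and 0.09, 0.38 and 0.06 in the Δβ SP replicates, so the groups overlapped. For both lists WT SP replicate 3 sat with the Δβ libraries.

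Other amino acid synthesis enzymes were split, 6 higher and 4 lower of 10 in SP, with a median of 0.05. Gpt2, which makes alanine, had 28.5, 48.7 and 37.5 normalised counts in WT SP and 82.9, 98.6 and 48.0 in Δβ SP, which is a log2 difference of 0.95 (unadjusted p = 0.0118, adjusted p = 0.246, limma). The highest WT and the lowest Δβ value of Gpt2 in SP nearly coincided. Glul, glutamine synthetase, was the lowest at -0.60 (adjusted p = 0.430, limma). In BM Got1 was the highest at 0.23 and Cth the lowest at -0.27. Of 9 tested amino acid transporters 7 were positive in SP, from Slc7a7 at -0.24 to Slc36a1 at 0.30 (unadjusted p = 0.0497, adjusted p = 0.336, limma). In BM they ran from -0.12 for Slc36a1 to 0.14 for Slc3a2, whose product pairs with xCT.

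Of 11 further targets of ATF4 and CHOP 9 were lower in Δβ in SP, with a median of -0.51. The list means were 0.66, 0.36 and -0.13 in the WT SP replicates and -0.08, -0.20 and -0.19 in the Δβ SP replicates, and WT SP replicate 3 lay among the Δβ libraries. The gene with the lowest fold change was Ddit4, which encodes an inhibitor of mTORC1. Ddit4 had 1336, 469 and 363 normalised counts in WT SP and 208, 205 and 364 in Δβ SP, which is a log2 difference of -1.29 (unadjusted p = 0.0321, adjusted p = 0.302, limma). The highest was the death receptor gene Tnfrsf10b at 0.59, which had at most 16.0 normalised counts in SP. In BM 9 of 11 were lower, with a median of -0.16, from Bbc3 at -0.47 to Bcl2l11 at 0.03.

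The unfolded protein response of the endoplasmic reticulum depended on the scaling. In SP 11 of 19 genes were higher and 8 lower, against 14 and 5 under TMM and 17 and 2 under quantile normalization. Dnajb9 was the lowest at -0.65, with 542, 454 and 428 normalised counts in WT SP and 357, 305 and 249 in Δβ SP (unadjusted p = 0.00821, adjusted p = 0.228, limma). Sdf2l1 was the highest at 0.74 (adjusted p = 0.445, limma). In BM 16 of 19 were lower by small amounts, from Hspa5 at -0.17 to Pdia3 at 0.12, with a median of -0.08. The list was highest in single libraries, Δβ SP replicate 2 at 0.45, Δβ BM replicate 2 at 0.35 and WT BM replicate 1 at 0.31.

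NRF2 targets are given because NRF2 shares Slc7a11 with ATF4. All 10 tested had a negative log2 fold change in SP, also under TMM and quantile scaling, with a median of -0.43, and 5 of them stood clear of overlap, against 17.3% of all tested genes. Hmox1, haem oxygenase, was the lowest, with 3925, 1402 and 314 normalised counts in WT SP and 300, 167 and 227 in Δβ SP (log2 fold change -2.41, unadjusted p = 0.00646, adjusted p = 0.223, limma). DESeq2 gave Hmox1 -3.00 with an adjusted p = 0.000509. Srxn1, sulfiredoxin, had 356, 248 and 166 in WT SP and 87.6, 137 and 142 in Δβ SP, and DESeq2 gave it -1.05 with an adjusted p = 0.0258. Gclm, which encodes a subunit of a glutathione synthesis enzyme, was the highest at -0.07. In BM 6 of 10 were lower, from Hmox1 at -1.02 (adjusted p = 1.0, limma) to G6pdx at 0.15, with a median of -0.02.

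Slc7a11, Hmox1 and Srxn1 shared the order of the WT SP libraries, with replicate 1 the highest and replicate 3 the lowest. Over the 12 libraries Slc7a11 had an r of 0.89 with Srxn1, 0.80 with Hmox1 and 0.83 with Ftl1. For Fth1 r was 0.77 and for Txnrd1 0.47. With the remaining NRF2 targets tested it was weak, 0.26 for Gclc, 0.18 for Gsr, 0.18 for G6pdx, -0.16 for Gclm and -0.17 for Slc48a1. Over the 10 immediate early genes r with Slc7a11 ran from 0.41 for Fosb to 0.84 for Nr4a1. Nr4a1 had 10522, 4801 and 507 normalised counts in the WT SP replicates and 430, 478 and 557 in Δβ SP. For the immediate early list the SP median was -1.89, from Nr4a1 at -2.60 to Ier2 at -1.05, with all 10 lower and 8 of them at an unadjusted p under 0.05, against 14.9% of all tested genes. In BM 5 of 10 were higher, from Junb at -0.47 to Egr1 at 2.03 (unadjusted p = 0.0551, adjusted p = 1.0, limma).

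**Figure D5:**
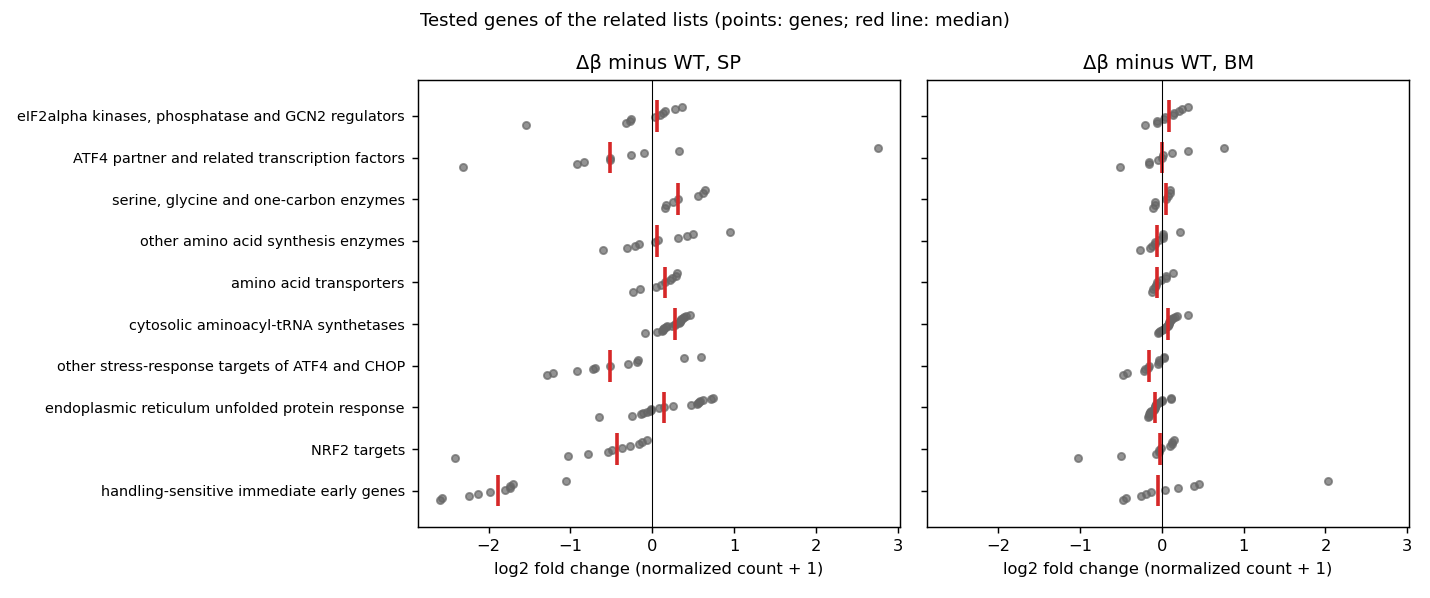
Log2 fold change (x axis) of Δβ against WT in SP (left) and BM (right) for each tested gene of the 10 related lists (rows); points are genes and red lines medians. In SP the medians of the immediate early genes (-1.89), partner factors (-0.51), further stress-response targets (-0.51) and NRF2 targets (-0.43) lie left of 0 and those of serine enzymes (0.32) and synthetases (0.28) right of it, while in BM all medians lie between -0.16 and 0.09.

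Positions of the members are from GENCODE M21 on GRCm38, by the transcript that matches the table's RefSeq accession. Atf4 (NM_009716) lies at chr15:80255184-80257541 on the plus strand in 3 exons, Ddit3 (NM_007837) at chr10:127290774-127296288 on the plus strand and Chac1 (NM_026929) at chr2:119351229-119354381 on the plus strand. On the minus strand are Trib3 (NM_175093) at chr2:152337422-152344032, Asns (NM_012055) at chr6:7675169-7693254, Phgdh (NM_016966) at chr3:98313170-98339990, Psat1 (NM_177420) at chr19:15904678-15925059 and Slc7a11 (NM_011990) at chr3:50364938-50443611. Counts are per gene over its exons.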

How the data were processed

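RNA of Venus+ blasts was sequenced in 12 libraries, 3 for each of WT SP, Δβ SP, WT BM and Δβ BM as the titles in the labels give them. The authors deposited 1 signal value per gene and library, a read count divided by a size factor. Per the labels' processing notes, FastQC, STAR, featureCounts and DESeq2 were used on GRCm38 (mm10), with versions and strand setting not given in the sources used here. Every value was a whole multiple of its library's smallest one (100% within 0.001 reads), so reads were recovered by division. A further 6 columns match no label and were not used.

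The 11476 of 24454 genes whose 12-library mean reached 10 were tested with limma 3.58.1 (lmFit, eBayes with trend, R 4.3.3) on log2(value + 1), a scale that understates changes of low genes, with 1 mean per group, Benjamini-Hochberg adjustment over all tested genes and a threshold of 0.05. Comparisons were genotype within organ, organ within genotype and their difference. Alternatives were pseudocounts of 0.25 and 4, no filter or a minimum of 50, TMM and quantile scaling, eBayes without trend, edgeR 4.0.16 and DESeq2 1.42.0 on recovered reads, 6 libraries alone, a replicate block and each library left out. Scripts were tested on simulated data. Named genes are the members, each list's highest and lowest gene per organ, any gene called, and those most like the members or Atf4; other genes were chosen after their values were seen. Members and lists were chosen with earlier results of these data known. Depth was 9001051 to 13859727 reads on genes, and 3 reads were taken as the floor, for counting error only. Sequences are from RefSeq (GRCm38.p6) and positions from GENCODE M21.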

Additional observations from a re-analysis of the deposited data

How the results depend on the processing

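Of 892 member values recomputed under the alternatives, 854 were counted as unchanged, 4 passed the threshold only under an alternative and 34 changed sign, none of them called. For the 7 tested members, unchanged means the same direction and side of the threshold. Trib3 was not tested, so its values were counted as unchanged when they moved by less than the SD within groups, whatever their sign. The number of members called was 0 in all 5 comparisons and became 1, Slc7a11, in SP between genotypes and in WT between organs, under DESeq2 and without WT SP replicate 3. The cause was not tested.

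Among the 7 tested members, Atf4 changed sign in SP between genotypes under quantile normalization (0.00149). It also did so between organs in Δβ under edgeR (0.00777) and DESeq2 (0.0158). Ddit3 changed sign between organs in WT under quantile normalization (0.0037), and the Asns difference of genotype effects under edgeR (-0.105) and DESeq2 (-0.102). With 1 library left out, the ranges of the log2 values that changed sign were as follows. Between genotypes in SP, Ddit3 ran from -0.0855 to 0.243 and Chac1 from -0.0229 to 0.806. The untested Trib3 also changed sign there, from -0.567 to 0.326 around a main value of 0.0136. Between genotypes in BM, Ddit3 ran from -0.2 to 0.0614, Chac1 from -0.777 to 0.148 and Phgdh from -0.436 to 0.0322. Between organs in WT, Ddit3 ran from -0.158 to 0.111, Chac1 from -0.764 to 0.0655, Asns from -0.296 to 0.571 and Psat1 from -0.233 to 0.0505. Between organs in Δβ, Atf4 ran from -0.193 to 0.108, Chac1 from -0.105 to 0.82, Phgdh from -0.173 to 0.656, Psat1 from -0.0975 to 0.312 and Slc7a11 from -0.0865 to 0.624. For the difference of genotype effects, Ddit3 ran from -0.00123 to 0.327, Asns from -0.215 to 0.657 and Psat1 from -0.0108 to 0.398.

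The number of all genes called between genotypes in SP was 12 and became 1 and 18 with pseudocounts of 0.25 and 4, 5 without the filter, 2 with a minimum of 50, 3 with TMM, 3 without trend, 4 with edgeR, 457 with DESeq2, 2 with 6 libraries alone and 1 to 1884 with 1 library left out. In BM it was 8 and became 5 without trend, 37 with DESeq2, 3 with 6 libraries alone and 1 to 13 with 1 library left out. Between organs in WT it was 0 and became 111 with DESeq2 and 598 without WT SP replicate 3, and in Δβ and for the difference of effects DESeq2 gave 2 and 3. Replicate numbers are shared by all groups but the labels do not tie them to an animal or day. Same-numbered SP and BM libraries deviated together in Δβ (r 0.664, 0.608 and 0.634, each closest to its own number) and not in WT (-0.00936, -0.0390 and -0.237). Each library except WT SP replicate 1 moved the SP count by over 1.5 times when left out, and WT SP replicate 1, WT BM replicates 1 and 2 and all Δβ BM replicates did so for BM. With the replicate block 0 members were called in each comparison, and 2 genes in SP and 5 in BM. Low members (Trib3, Chac1, Phgdh) are limited by depth.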
